A study of Homo sapiens with 6 samples.

Results

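Potassium channel genes were examined as the 93 protein-coding genes on autosomes, of 19229 such genes in all, whose symbol starts with KCN. The symbols and positions came from GENCODE on hg19, the build of the deposited peaks, and the rule itself uses no measured value. The peaks came from bulk ATAC-seq, in which the Tn5 transposase inserts sequencing adapters into open chromatin, of GM12878 cells, a lymphoblastoid line made from B cells. All libraries were made from 50000 cells fixed in 1% formaldehyde and reverse crosslinked at 65 °C overnight, with 2 libraries for each of 3 protocols. The SDS protocol used a buffer with 1% SDS and, by the study's methods, column purification. The non-SDS purified and non-SDS unpurified protocols used a buffer without SDS, and the DNA was either purified before PCR or amplified in the reverse crosslinking mixture. No treatment or genetic change of the cells is given, and the protocols differ in how the libraries were made.

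Potassium channels let potassium leave or enter the cell and set its membrane potential. Voltage-gated (Kv) channels open on depolarization, inward rectifiers (Kir) pass current mainly near rest, two-pore (K2P) channels leak, and calcium- or sodium-activated channels follow the ions inside. Auxiliary subunits tune the pore subunits. In lymphocytes the efflux through KCNA3 and KCNN4 holds the potential negative and so sustains calcium entry through ORAI channels after antigen receptor signalling, while many other members are best known from neurons and heart muscle. Each member was placed in 1 list by such knowledge, with 4 lymphocyte, 35 neuronal, 14 cardiac and 40 other genes. The placement is approximate. KCNJ10, a glial channel, is in the neuronal list, and KCNMB4, known from brain, is among the other genes. The lymphocyte list held KCNA3, KCNN4 and the leak channel gene KCNK5 as pores and KCNAB2 as the beta subunit of Kv channels.

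The 6 lists held 30136 to 38023 peaks each. They give no read totals, but the fold enrichment and p value of a peak together fix how many reads lay at its summit, with library medians of 20 to 22 reads. The lowest local background, which scales with depth, was 1.51 to 1.86 reads, so the deepest and the shallowest library were close. The smallest summit called in any library had 8 or 9 reads, and a window without a peak was not detectably open at that depth rather than shown to be closed. Among the cell type markers, the B cell gene MS4A1 had a peak at its start in all 6 libraries, CD79A in 4, and CD79B and PAX5 in 1 each. CR2 had none at its start. MS4A1, PAX5 and CR2 had a peak in the body in every library. The T cell gene CD8A and the neuronal gene SYT1 were also called at the start in all 6, whereas CD3D, CD3E, CD3G, SNAP25, RBFOX3, GRIN1 and the 4 heart muscle genes had no start peak. Of these, GRIN1 had a body peak in all 6 libraries, SNAP25 in 5 and the heart muscle gene ACTN2 in 3. A start peak was therefore neither general among the B cell markers nor limited to them.

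Most potassium channel genes had no peak at their start. The start window covered 1 kb on each side of the gene start, and 1 bp of overlap counted. Of the 93 members, 9 (9.68%) had a peak there in all 6 libraries, 14 (15.1%) in 1 to 5 libraries and 70 (75.3%) in none. Across all 19229 genes, 41.0% were called in all 6 libraries, 14.3% in 1 to 5 and 44.6% in none. The share called in 1 to 5 libraries was thus close to that of all genes. At least 1 library called 23 members (24.7%), against 55.4% of all genes. In single libraries the called share of members lay between 12.9% and 20.43%, and that of all genes between 46.59% and 50.03%. In each of the 6 libraries the members were thus called less often than genes in general, as a description of these gene sets with no test.

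**Figure D1:**
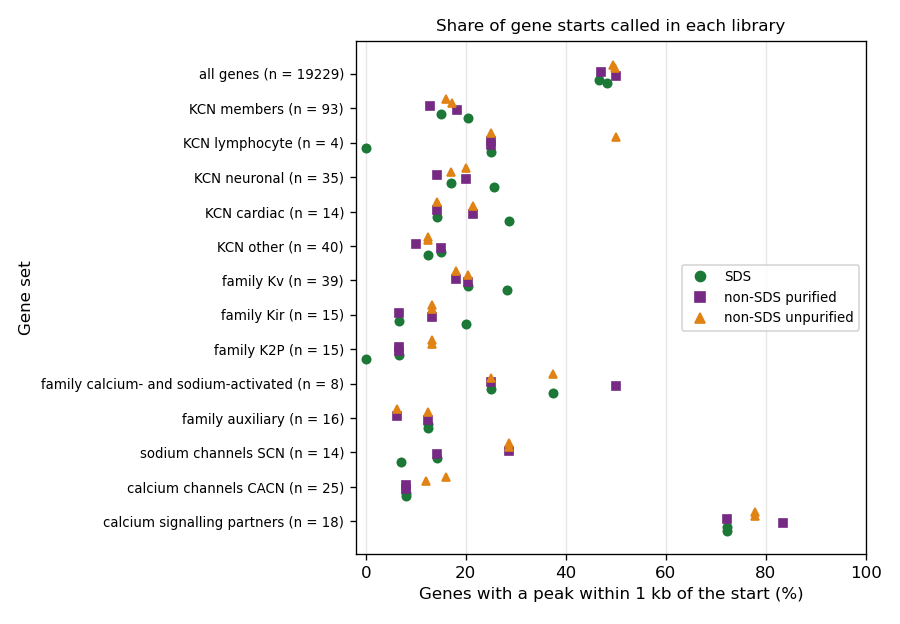
Percent of genes with a peak within 1 kb of the start (horizontal axis) for each gene set (vertical axis), with 1 point per library and protocols by colour and shape. The 93 KCN members sit between 12.9% and 20.43%, to the left of all genes at 46.59% to 50.03%, and the calcium signalling partners sit between 72.22% and 83.33%.

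The lymphocyte list did not stand out at its starts. None of its 4 genes was called in all 6 libraries, 2 were called in some and 2 in none. Of the 35 neuronal genes, 5 were called in all 6 libraries, 5 in 1 to 5 and 25 in none. Of the 14 cardiac genes the counts were 1, 3 and 10, and of the 40 other genes 3, 4 and 33. By family, 6 of 39 Kv genes, 1 of 15 Kir genes, 1 of 8 calcium- and sodium-activated genes, 1 of 16 auxiliary genes and 0 of 15 K2P genes were called in all 6. Every list and family lay below the 41.0% of all genes.

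Among the lymphocyte channels, KCNN4 had the most regular start peak. It encodes the calcium-activated channel of intermediate conductance. Its summit held 17 reads in SDS replicate 1, 20 and 19 in the non-SDS purified libraries, and 19 and 18 in the non-SDS unpurified libraries, and SDS replicate 2 had no peak. The fold enrichment over the local background was 3.52 in SDS replicate 1 and 4.17 to 5.0 in the other 4 libraries. Where it was called the peak thus held a similar number of reads, at chr19:44285028-44285341, with the summit 39 bp before the gene start. It was weak, with a mean −log10 q of 6.15 over the calling libraries. The lowest mean among members called in all 6 libraries was 6.7 (KCNS3). In SDS replicate 1 the −log10 q was 4.0, so at the stricter cutoff of 5 no SDS library called the KCNN4 start. KCNN4 had no other region in its body. The summit window reached the first exon, so only the part upstream of the gene start is shown. It is 139 bases long on the minus strand (chr19:44285129-44285267, hg19), and the capitals mark the letters CCGCCC, the reverse complement of the SP1 motif GGGCGG. Shown as the sequence under the lymphocyte channel that most libraries called:
KCNN4 upstream: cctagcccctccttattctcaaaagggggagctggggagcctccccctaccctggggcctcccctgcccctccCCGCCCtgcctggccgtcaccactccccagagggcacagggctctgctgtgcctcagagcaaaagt

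KCNA3 encodes the Kv channel that carries most of the voltage-gated potassium current of lymphocytes. It had no peak within 1 kb of its start or within its 21.4-kb body in any of the 6 libraries. The nearest region to its start lay 39500 bp away and was called in 4 libraries, and the nearest region called in all 6 lay 266923 bp away. The start of KCNA3 was CpG-rich, with 76.3% GC and an observed over expected CpG ratio of 0.86, and of the genes with such starts 61.4% were called in all 6 libraries. KCNA3 was thus without a peak in all 3 protocols.

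KCNAB2 was open just inside the gene rather than at its annotated start. Its start window had no peak, but the region chr1:6052098-6052969, with a summit 1.6 kb into the gene in an untranslated exon, was called in all 6 libraries. It held 61 and 56 reads in the SDS libraries, 70 and 55 in the non-SDS purified and 78 and 63 in the non-SDS unpurified libraries. With a mean −log10 q of 39.3 it was the strongest region of any member. The same region lies within 1 kb of the start of NPHP4, a ciliary gene, so the peak cannot be assigned to KCNAB2 alone. A further region 35.32 kb into KCNAB2, chr1:6086072-6086550, was called in all 6 libraries with 24 to 49 reads and lies at no other gene start. It was highest in non-SDS purified replicate 1 (49 reads) and lowest in SDS replicate 2 (24 reads).

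KCNK5 encodes an acid-sensitive leak channel. A single library, non-SDS unpurified replicate 1, called its start, with 13 reads and a fold of 4.86. Its 40.5-kb body held 5 regions, each called in 1 library and with 12 to 15 reads at the summit. No region of KCNK5 was thus seen in more than 1 library, although 4 of the 6 libraries had one somewhere in the gene.

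The 9 starts called in all 6 libraries included 5 neuronal genes, 1 cardiac gene and 3 of neither list. The strongest was KCNMB4, the beta subunit of the large-conductance calcium-activated channel that is known from brain. It held 45 and 45 reads in the SDS libraries, 54 and 41 in the non-SDS purified and 63 and 63 in the non-SDS unpurified libraries, so that the last 2 were the highest. Its mean fold was 7.22 ± 0.881 (SD, n = 6). KCNJ2, the inward rectifier that stabilizes the resting potential of heart and skeletal muscle, held 42 and 37, 44 and 38, and 48 and 46 reads in the same order. Its fold was 8.48 ± 0.447 (SD, n = 6), and its SD was the smallest of the 9 relative to the mean. The start of the noncoding gene KCNJ2-AS1 lies in the same window. KCNH1, a Kv channel of the ether-a-go-go family, held 32 and 31, 26 and 28, and 45 and 40 reads. Its lower purified and higher unpurified values did not overlap. KCNC4, a fast-closing Kv channel, held 28 and 31, 36 and 26, and 39 and 28 reads, with overlap among the protocols.

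The other 5 were weaker. KCNB2, a delayed rectifier, had 22 to 39 reads and KCND2, which carries the transient A-type current of neurons, had 22 to 41 reads. KCNQ5, a subunit of the neuronal M-current, had 32 to 44 reads but a mean fold of only 3.58 ± 0.269 (SD, n = 6), over a higher local background. KCNN3, a small-conductance calcium-activated channel, had 16 to 30 reads, and KCNS3, a silent subunit that modifies other Kv channels, had 17 to 26 reads. The 9 members had a median mean −log10 q of 12.5, against 19.3 for the 7889 starts called in all 6 libraries, and a median fold of 5.72 against 7.46. By mean −log10 q, KCNMB4 stood at the 69.2 percentile of those 7889 starts, KCNJ2 at 66.3 and KCNH1 at 50.5. KCNC4 stood at 42.8, KCNB2 at 22.9 and KCND2 at 11.2. KCNQ5 stood at 7.4, KCNN3 at 6.45 and KCNS3 at 0.938, near the weakest of all starts called in every library.

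**Figure D2:**
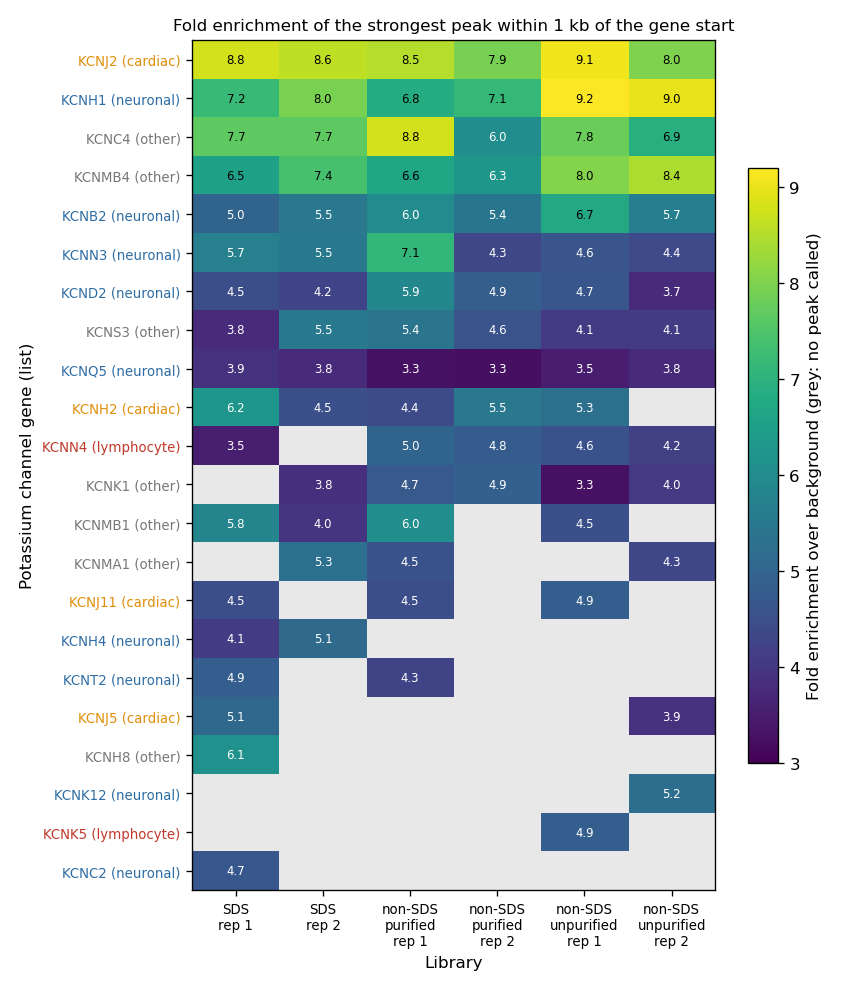
Fold enrichment of the strongest peak within 1 kb of the start for 22 of the 23 members that any library called (rows, with their list) in the 6 libraries (columns). Grey marks a window without a peak. The 9 members at the top were called in all 6 libraries, with mean folds from 3.58 (KCNQ5) to 8.48 (KCNJ2), and the 4 at the bottom in 1.

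The summits of KCNH1, KCNC4 and KCNN3 lay 106, 140 and 111 bp before the gene start, outside untranslated exons. The bases within 100 of each summit are shown, on the strand of the gene, because they are starts of 2 neuronal genes and 1 other gene that a lymphoblastoid line held open in every library. Capitals mark matches to the motifs searched, here SP1 (GGGCGG or CCGCCC) and, in KCNH1, the ETS core (GGAAGT, as ACTTCC). They come from hg19 chr1:211307513-211307713 (minus strand), chr1:110752696-110752896 (plus strand) and chr1:154842768-154842968 (minus strand).
KCNH1 start: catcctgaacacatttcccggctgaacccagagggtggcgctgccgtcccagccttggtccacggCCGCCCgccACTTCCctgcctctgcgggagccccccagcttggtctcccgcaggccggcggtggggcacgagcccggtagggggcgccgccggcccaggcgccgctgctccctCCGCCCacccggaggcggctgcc
KCNC4 start: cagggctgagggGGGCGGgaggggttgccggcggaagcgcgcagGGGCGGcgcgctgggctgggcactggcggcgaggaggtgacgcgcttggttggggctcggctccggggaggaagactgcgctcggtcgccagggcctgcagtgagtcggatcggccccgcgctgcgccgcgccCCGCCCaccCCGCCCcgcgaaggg
KCNN3 start: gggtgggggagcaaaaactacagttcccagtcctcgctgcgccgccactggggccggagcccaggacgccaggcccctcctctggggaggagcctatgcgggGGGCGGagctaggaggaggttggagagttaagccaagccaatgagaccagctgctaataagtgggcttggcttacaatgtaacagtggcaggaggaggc
All 3 hold an SP1 match, and the KCNN3 sequence is the least GC-rich, with 62.7% GC against 76.1% and 79.1%. From 250 bases before to 50 after the gene start, an SP1 match on either strand was found in 7 of the 9 member starts called in all 6 libraries, in 69.4% of all starts called in all 6 and in 52.5% of all gene starts. The ETS core was found in 2 of the 9 (KCNH1 and KCNMB4), against 28.3% and 23.5%. The longer ETS motif CCGGAAGT and the NRF1 motif GCGCNTGCG were in none of the 9, against 9.56% and 16.5% of the starts called in all 6. RUNX (TGTGGT) was in 1 of the 9 (KCNS3), against 9.85%, and the E-box CAGGTG in 1 (KCND2), against 17.7%. AP-1 (TGANTCA), OCT (ATGCAAAT), NF-kB (GGGANTTTC) and IRF matches were in none, against 3.9%, 1.42%, 1.27% and 2.88% of the starts called in all 6. The ETS core lies within the longer ETS motif, so both can match the same bases. A match describes the letters in a window and not a bound factor.

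Of the 14 starts that some libraries missed, 3 were called in 5 libraries, namely KCNH2, KCNN4 and KCNK1. KCNH2 encodes the channel of the rapid delayed rectifier current that ends the cardiac action potential. It held 20 and 15 reads in the SDS libraries, 15 and 19 in the non-SDS purified libraries and 22 in non-SDS unpurified replicate 1, and had no peak in replicate 2. KCNK1, a weakly rectifying leak channel, was missed by SDS replicate 1 and had 15 to 24 reads elsewhere. KCNMB1, the beta subunit of the large-conductance channel in smooth muscle, was called in 4 libraries. KCNMB1 lies inside the body of KCNIP1, whose counts include that peak. KCNMA1, the pore of the large-conductance channel, and KCNJ11, the pore of the ATP-sensitive channel, were called in 3. KCNT2, KCNJ5 and KCNH4 were called in 2, and KCNH8, KCNK12, KCNK5 and KCNC2 in 1. Apart from KCNH8, the starts in 1 or 2 libraries held 12 to 20 reads.

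The case of KCNH8 came from the edge of the window. Its upstream region, chr3:19188048-19189113, was called in all 6 libraries with 28 to 43 reads and a summit 1.65 kb before the gene start. The peak of SDS replicate 1 alone reached within 1 kb. With 2 kb on each side, 15 members (16.1%) instead of 9 were called in all 6 libraries, against 42.9% of all genes, namely the 9 and KCNAB2, KCNAB3, KCNH8, KCNK13, KCNK9 and KCNV1. With 500 bp, 7 (7.53%) were called in all 6, against 38.7% of all genes, and KCNJ2 (4 libraries) and KCNS3 (2 libraries) dropped out because their peaks lie further into the gene. Just outside the 1-kb window, regions called in all 6 libraries began 1048 bp from the start of KCNV1, 1061 bp from that of KCNK13 and 1111 bp from that of KCNAB2, and a region called in 1 library 1086 bp from that of KCNG3. Just inside it, the region of KCNH8 came to 889 bp, that of KCNMB1 to 868 bp and that of KCNK12 to 839 bp.

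A gene has several annotated transcript starts, and some members were open at another of them. When the start of any protein-coding transcript counted, 15 members (16.1%) were called in all 6 libraries, against 45.4% of all genes. Among those added were KCNAB2 of the lymphocyte list, KCNIP2 of the cardiac list, and KCNK10, KCNN2 and KCNV1 of the neuronal list. By list the counts in all 6 became 1 of 4 lymphocyte, 9 of 35 neuronal (25.7%), 2 of 14 cardiac (14.3%) and 3 of 40 other genes (7.5%). The lymphocyte channels KCNA3 and KCNK5 gained no library from their other transcripts.

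Several well known neuronal and cardiac channels had no start peak in any library. Of the neuronal list these included KCNA1 (a Kv channel of axons), KCNC1 (a fast Kv channel), KCNQ3 (an M-current subunit) and KCNJ6, a G protein-gated rectifier. Of the cardiac list KCNQ1, the pore of the slow delayed rectifier, and its partner KCNE1 had none. KCNA1, KCNC1 and KCNE1 also had no region in the body. KCNQ3 held 6 body regions with none called in all 6 libraries, and KCNJ6 held 5 with 1 called in all 6. KCNJ12 lies in duplicated sequence, where reads of low mapping quality were removed, so its lack of a peak is uncertain.

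Genes of the pathway in which the lymphocyte channels act were mostly open. Of 18 partners in calcium signalling, 13 (72.2%) had a start peak in all 6 libraries, against 41.0% of all genes. A further 3 had one in 1 or 2 libraries and 2 (11.1%) in none, against 44.6% of all genes in none. The partners were picked by knowledge of the pathway, and whether the difference is particular to lymphocytes was not tested. Those in all 6 included the calcium entry channels ORAI1 and ORAI2, the calcium sensors STIM1 and STIM2, the release channels ITPR1 and ITPR2, the phospholipase PLCG2, the calmodulin genes CALM2 and CALM3, the channel TRPM7, the calcium pump ATP2B1 and the scaffold DLG1. Their weakest summits held 22 reads or more, and ATP2B1 held 91 to 124. ORAI3 and ATP2B4 were called in 1 library and ITPR3 in 2, while the proton channel gene HVCN1 had a body peak only and TRPM4 had none. Of 14 voltage-gated sodium channel genes 1 (7.14%) was called in all 6 libraries, and of 25 calcium channel genes 1 (4.0%), beside the 9.68% of the potassium channel genes.

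Members were called less often than other genes among CpG-rich and CpG-poor starts alike. A start was taken as CpG-rich when the sequence within 500 bases on each side had at least 50% GC and an observed over expected CpG ratio of at least 0.6. By this measure 51 members (54.8%) and 58.2% of all genes were CpG-rich. Of the CpG-rich members, 8 (15.7%) were called in all 6 libraries, against 61.4% of CpG-rich genes. Of the 42 CpG-poor members 1 (2.38%) was called in all 6, namely KCNN3, against 12.6% of CpG-poor genes. Of the 70 members that no library called, 33 (47.1%) were CpG-rich, against 27.3% of all uncalled genes.

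**Figure D3:**
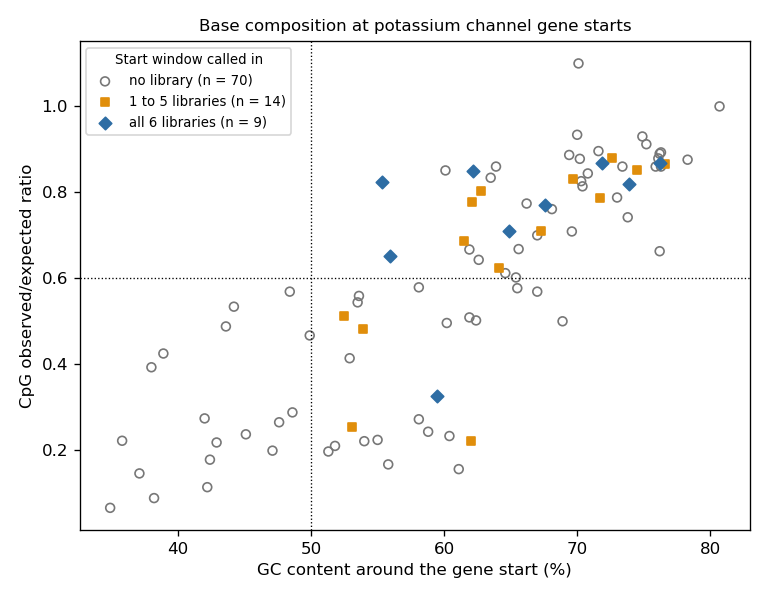
GC content in percent (horizontal axis) and observed over expected CpG ratio (vertical axis) of the sequence within 500 bases of each member's start, with 1 point per gene. Dotted lines mark 50% GC and a ratio of 0.6. Diamonds (9 members called in all 6 libraries), squares (14 in 1 to 5) and open circles (70 in none) share the CpG-rich corner, where 8 of the 9 diamonds and 33 of the 70 open circles lie.

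Long members held many open sites away from their starts. Each library had a peak somewhere in the body of 32 members (34.4%), against 52.5% of all genes, and at least 1 library in 51 members (54.8%), against 70.2%. Peaks of the 6 libraries were merged into consensus regions, of which 244 overlapped member bodies. That is 18.5 per Mb over 13.22 Mb, against 25.6 per Mb over all gene bodies. Outside the start windows of all genes the density was 17.2 per Mb against 19.2 per Mb. Of the 244 regions, 69 (28.3%) were called in all 6 libraries, against 41.3% of the 31985 regions in gene bodies, and 89 (36.5%) in a single library, against 24.1%. Outside the start windows 26.5% against 30.9% were called in all 6 libraries, and 38.5% against 29.6% in a single library. The summits lay in introns in 210 of the 244. The difference from other genes was thus smaller away from the starts.

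Body length went with the number of regions. Across the 93 members Spearman's rho was 0.73 and across all 19229 genes 0.61, given as a description over genes, which share the libraries. The 42 members without a region had a median body of 13.9 kb and the 51 with one 146.0 kb. In bodies of 5 to 10 kb, 8.33% of 12 members had a region, against 52.1% of all genes of that length. In bodies of 50 to 100 kb members held 1.17 regions on average against 2.0, and in bodies of 100 to 200 kb 2.07 against 3.57, with 71.4% of 14 members and 91.4% of all genes holding any. In bodies of 200 to 500 kb, all 14 members had one, with 6.71 regions on average against 6.56, but the median length there was 402.0 kb for the members and 282.0 kb for all genes. Up to 200 kb the members thus held fewer regions than genes of the same length class.

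**Figure D4:**
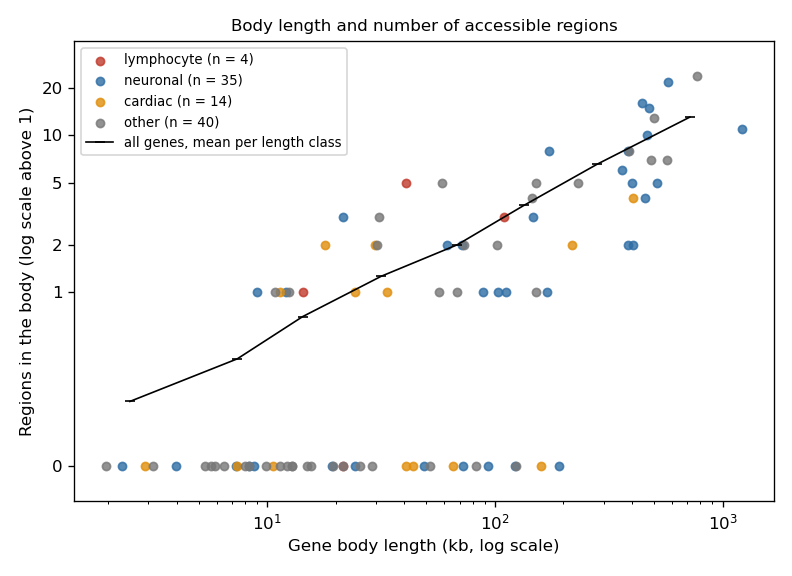
Number of accessible regions in the gene body (vertical axis, linear to 1 and logarithmic above) against body length in kb (horizontal axis, log scale) for the 93 members, coloured by list. The black line is the mean of all genes in 8 length classes, drawn at the median length of the class. The 42 members at 0 are mostly short, and members over 200 kb scatter around the line.

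Members with the most body regions were large. KCNMA1 held 24, of which 4 were called in all 6 libraries and 12 in 1. KCNQ5 held 22, of which 8 were called in all 6. KCNN2, a small-conductance calcium-activated channel without a peak at its gene start, held 16. Of these, 8 were called in all 6, all 272.3 kb or more from the gene start. All 6 libraries called another annotated transcript start of KCNN2, so distance from the gene start is not distance from every start. KCND2 held 15 (6 in all 6), KCNAB1, a beta subunit, 13 (3), KCNIP4, a calcium-binding partner of A-type channels, 11 (2) and KCNH7, a Kv channel, 10 (3). KCNN3, KCNIP1 and KCNH8 followed with 8 each, of which 3, 2 and 1 were called in all 6. By list the density was 48.2 per Mb in the 0.187 Mb of the lymphocyte genes (9 regions), 17.0 per Mb in the neuronal genes (130 regions), 12.1 per Mb in the cardiac genes (13) and 21.3 per Mb in the other genes (92). The lymphocyte value rests on few bases and on single-library regions, 7 of its 9 regions being called in fewer than all 6 libraries.

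**Figure D5:**
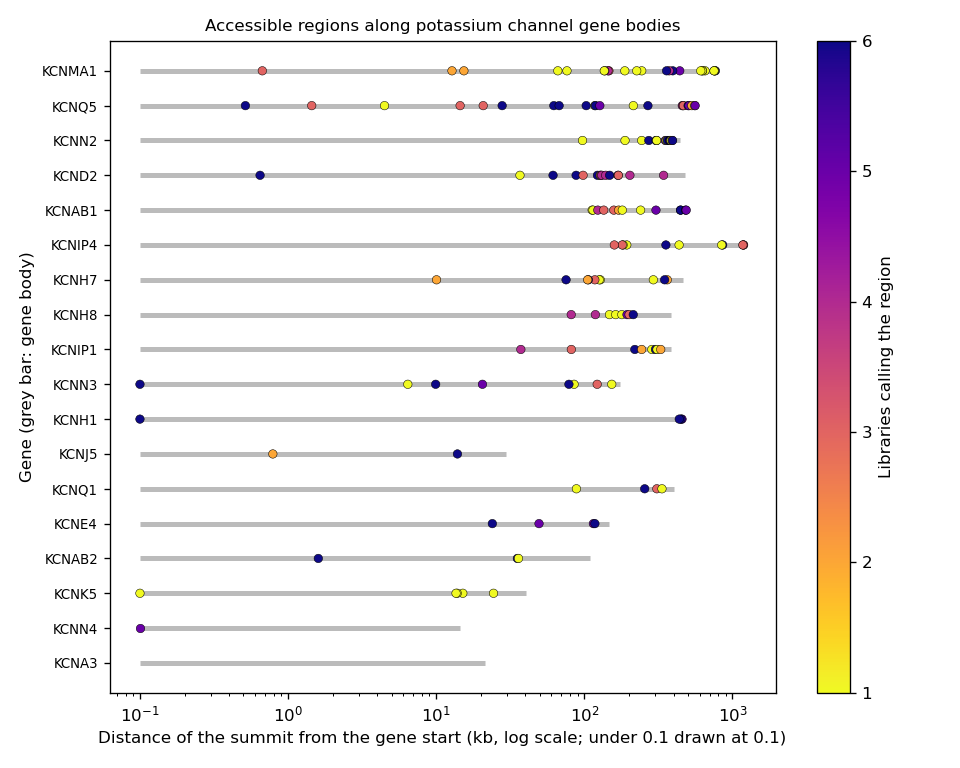
Position of each body region by the distance of its summit from the gene start (horizontal axis, kb, log scale) along 18 members, with the gene body as a grey bar and the number of libraries that called the region as colour. The 8 regions of KCNN2 called in all 6 libraries lie 272.3 kb or more from its gene start, though not necessarily from its other transcript starts. KCNAB2 has 2 regions in all 6, and KCNA3 has none.

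After the region of KCNAB2, the strongest body regions by mean −log10 q were in introns of KCNH1 and KCNE4, far from the gene starts. In KCNH1, the region chr1:210869980-210870594 in an intron, 437.2 kb from the start, held 63 and 57 reads in the SDS libraries, 42 and 38 in the non-SDS purified and 54 and 40 in the non-SDS unpurified libraries. Both SDS values were the highest, but the share of all regions with this order was not computed. The mean −log10 q of the region, 31.2, exceeded the 19.4 of the KCNH1 start itself. In KCNE4, a subunit that inhibits Kv channels, the intronic region chr2:224034422-224035060 held 63 and 45, 49 and 42, and 52 and 55 reads, with a mean −log10 q of 29.6. KCNE4 had no start peak in any library. The bases within 100 of each summit are shown as examples of the distal kind, with 39.8% and 41.3% GC, from hg19 chr1:210870190-210870390 (minus strand, as the gene) and chr2:224034624-224034824 (plus strand). Capitals mark RUNX (TGTGGT or ACCACA) in both, and in KCNH1 also the E-box CAGGTG and AP-1 (TGATTCA).
KCNH1 intron: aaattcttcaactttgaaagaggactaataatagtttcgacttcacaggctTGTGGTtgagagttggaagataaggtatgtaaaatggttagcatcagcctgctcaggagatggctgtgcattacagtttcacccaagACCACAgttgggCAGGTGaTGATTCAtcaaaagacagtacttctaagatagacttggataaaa
KCNE4 intron: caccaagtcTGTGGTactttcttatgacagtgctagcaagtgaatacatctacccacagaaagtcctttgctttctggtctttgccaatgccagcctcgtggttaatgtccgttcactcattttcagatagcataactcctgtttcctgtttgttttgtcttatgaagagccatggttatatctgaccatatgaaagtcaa
Neither holds the SP1 letters that the start sequences above share. Within 100 bases of the summits of the 70 member regions called in all 6 libraries, which count starts and bodies together, RUNX letters were in 22.9%, against 21.2% of the 19364 autosomal regions called in all 6. AP-1 letters were in 20.0% against 13.8%, IRF in 10.0% against 5.91%, OCT in 7.14% against 2.03% and the E-box in 15.7% against 13.4%. SP1 letters were in 25.7% against 33.4%, and the ETS core in 14.3% against 20.0%. NF-kB letters were in 1.43% against 3.47%, and the longer ETS motif and NRF1 in none of the 70, against 3.15% and 6.95%. The 2 sets were not matched for how many regions lie at gene starts. Of the regions in gene bodies called in all 6 libraries, 60 of 69 in members overlapped sequence outside start windows. Over all gene bodies 7287 of 13205 did. Whether the differences in motif shares go beyond this was not tested.

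Of the 4 body regions of cardiac members called in all 6 libraries, 3 lie at starts of noncoding genes, among them the KCNJ2 start itself. The share of all body regions that lie at such starts was not computed. The strongest cardiac region was the KCNJ2 start. The next was chr11:128774785-128776112, 13.91 kb into KCNJ5, the G protein-gated rectifier of the atria, which held 28 to 42 reads in the 6 libraries and lies at the start of the noncoding gene KCNJ5-AS1. In KCNQ1 the 1 region called in all 6 libraries, chr11:2720926-2721647, held 16 to 26 reads and lies at the start of KCNQ1OT1, the imprinted noncoding RNA of that locus. In KCNIP2, a partner of A-type channels in the heart, the fourth region, 13.24 kb from the gene start, held 15 to 29 reads. A transcript start of KCNIP2 other than the gene start was called in all 6 libraries. In KCNJ10, a glial inward rectifier placed in the neuronal list, the region called in all 6 libraries lies at the start of PIGM. PIGM acts in the synthesis of glycolipid anchors. Of the 244 body regions, 4 lay at the start of another protein-coding gene.

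The 3 protocols did not differ detectably at the potassium channel genes. The called share of member starts was 17.74% ± 3.8 with SDS, 15.59% ± 3.8 without SDS and purified, and 16.67% ± 0.757 without SDS and unpurified (mean ± SD, n = 2 each). The number of body regions called was 142.0 ± 19.8, 129.0 ± 18.4 and 130.0 ± 7.07 in the same order. The single libraries had 156 and 128 regions with SDS, 142 and 116 purified and 125 and 135 unpurified, so that the protocols overlapped. Peaks covered 53710 ± 8140 bp, 52650 ± 6840 bp and 52020 ± 402 bp of the member bodies. The groups overlapped in all 9 comparisons. The exact two-sided permutation tests gave p from 0.667 to 1.0, and all were 1.0 after Benjamini-Hochberg adjustment over the 9 tests. With 2 libraries against 2 the smallest p is 0.33, so no difference could have passed a threshold of 0.05. The labels do not say whether replicates came from separate cultures, and the spread may be technical.

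Some single starts were ordered by protocol. Among the 9 members called in all 6 libraries, both non-SDS purified libraries lay above both SDS libraries in fold enrichment at 1 (KCND2) and below them at 3 (KCNH1, KCNQ5 and KCNJ2), against 21.6% and 11.4% of the 7889 starts. Both non-SDS unpurified libraries lay above both SDS libraries at 3 (KCNH1, KCNB2 and KCNMB4) and below at 1 (KCNN3), against 19.9% and 14.2%. They lay above both non-SDS purified libraries at 3 (KCNH1, KCNQ5 and KCNMB4) and below at 2 (KCNS3 and KCND2), against 13.6% and 19.7%. KCNH1 was the 1 member ordered in all 3 comparisons, with folds of 7.17 and 7.96 with SDS, 6.85 and 7.14 purified and 9.2 and 8.99 unpurified. The share of the 7889 starts ordered in all 3 comparisons was not computed, so KCNH1 is not shown to be unusual. These are counts over 9 members and were given no test.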

How the data were processed

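Peaks of 6 fixed-cell ATAC-seq libraries of GM12878 were used, grouped by the labels and, for column purification of the SDS libraries, by the study's methods. The authors mapped reads to hg19 with Bowtie2 (2.1.0), processed them with Picard (1.79), as named in the submitters' processing notes, discarded mitochondrial, duplicate and poorly mapped reads, and ran MACS2 (version not given in the sources used here) with a q cutoff of 0.01. Each deposited peak carries a score, which was not used, a fold enrichment, and a p-value and a q-value as −log10. The fold is a ratio of summit reads to background reads after a small constant is added to both. Summit reads were solved from the fold and the p-value, and gave back the −log10 p-value within 0.001 for 100.0% of peaks. The precision of a peak is limited by these counts, and no read totals are given.

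Genes and transcripts were those of GENCODE version 44 on GRCh37, the same build. Start windows were 1 kb each side of the gene start, and 1 bp of overlap made a call. The study's methods describe pooling bulk reads of 1 condition ahead of peak calling, but each library has a list of its own that differs from its replicate's, so each list was taken as 1 replicate. The 211329 peaks were merged into 56447 consensus regions. Protocols were compared with exact two-sided permutation tests over libraries. Gene sets are described with no test. Motifs were searched on both strands, and the IRF motif is given by name alone. Named genes were the lymphocyte list, every member with a start peak, a fixed set of neuronal and cardiac genes, the members with the most body regions and the strongest body region of each list. Some genes under this rule are not reported here. Ties for the most body regions were all named. KCNIP2, KCNJ10, KCNK9, KCNK10, KCNK13, KCNV1, KCNAB3, KCNG3 and KCNJ12 were named after their values were seen. Alternatives were a −log10 q of at least 5, the 30136 strongest peaks of each list, summits in place of overlap, windows of 500 bp and 2 kb, any transcript start, bodies without starts, members without a shared start, each replicate left out and the replicate block. The members and lists were chosen with earlier results of these data known. Functions were tested on simulated data. Protein sequences were not analysed here. Python 3.11.15, NumPy 2.4.6, SciPy 1.17.1 and pandas 2.3.3 were used.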

Additional observations from a re-analysis of the deposited data

Results flagged for a closer look

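The following genes are not among the 93 members. The peaks at KCNQ1OT1, KCNJ5-AS1, KCNIP1-AS1 and KCNMA1-AS1 are nevertheless body regions of KCNQ1, KCNJ5, KCNIP1 and KCNMA1. They were counted there already and are not additional signal. Peaks were called at starts of genes named after potassium channels that are noncoding or lie on chromosome X. All lie above the 3 reads that a count of 0 allows, by counting error only. This holds for any called peak, since the smallest summit in any library had 8 or 9 reads, and so tests nothing. KCNQ1OT1, which lies within KCNQ1, was called at its start in 6 libraries with 16 to 26 reads. KCNJ5-AS1 was called in 6 libraries with 28 to 42 reads. KCNIP2-AS1 was called in 6 libraries with 25 to 41 reads, and its window also holds the start of OGA. KCNIP1-AS1 was called in 2 libraries with 12 reads in each, and KCNMA1-AS1 in 1 library with 12 reads. The protein-coding gene KCND1 on chromosome X was called in 1 library with 16 reads and a fold of 6.07. Of 27 noncoding genes with such names, 7 were called in all 6 libraries, 2 in 1 to 5 and 18 in none. The same share over all noncoding genes was not computed, so these counts have no background beside them. 3 of the 7 do not share a start window with a potassium channel gene.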

How the results depend on the processing

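The small differences between protocols turned sign under several alternatives, and with 2 libraries a group no test could pass a threshold. Of 171 values under the alternatives, 136 kept the direction of a difference or, for counts, stayed within 1.5 times the main count. Both numbers include the replicate block, 1 value for each of the 9 tests, which keeps the difference by construction. Members called at the start in all 6 libraries went from 9 to 15 with 2 kb on each side (42.9% of all genes) and to 15 with any transcript start, where the lymphocyte count became 1 in both, the neuronal count 9 and the cardiac count 2 with any transcript start. With 500 bp the cardiac count was 0. Leaving out 1 library at a time gave 0 to 1 lymphocyte members (1 without SDS replicate 2, by KCNN4) and 1 to 2 cardiac members (2 without non-SDS unpurified replicate 2, by KCNH2).

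Differences are given as first minus second protocol. In the called share of starts, the equal number of 30136 peaks gave 0.0 percentage points for all 3 pairs, and a −log10 q of at least 5 gave 0.0 for unpurified minus SDS. With 500 bp, purified minus SDS was 1.08 and unpurified minus SDS 1.61, and with 2 kb the latter was 0.538. In body regions, the equal number gave 1.0 for purified minus SDS and -6.5 for unpurified minus purified, which was 0.0 outside start windows. In bp of peaks, the equal number gave 2590 for purified minus SDS. Unpurified minus purified was 785 with the stricter q and 14.0 with summits. Leaving out 1 library at a time, the share ranged from -4.84 to 0.538 (purified minus SDS), -3.76 to 1.61 (unpurified minus SDS) and -1.61 to 3.76 (unpurified minus purified). Regions ranged from -27.0 to 1.0, -26.0 to 2.0 and -12.0 to 14.0, and bp from -6810 to 4700, -7450 to 4060 and -5470 to 4200, in the same order. Several signs turned without SDS replicate 1 or non-SDS purified replicate 2, the fullest and the shortest list at these genes.

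Replicate numbers pair the libraries by number only. The difference of replicate 1 from replicate 2 in log2 fold over 20064 regions had correlations of 0.01, -0.0 and 0.01 between protocols. With the replicate block the smallest possible p is 0.5, the differences stay as they are (for the share, -2.15, -1.08 and 1.08 percentage points), and the block changed no call, since none could be made. The lists hold no read totals, so depth limits every missing call to the reads needed for a peak.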
